A study of Mus musculus and synthetic construct with 21 samples.

Results

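Site 240 is a mouse genomic element built around a PPARγ motif, and its reporter elements came from 3 pools of designed DNA. In pool 6, each of 14 named slots of the element was given each of 39 motifs, which made 546 elements beside the native (wt) element. Pool 5 held 18 elements of the site (15 named motifs altered, 2 control alterations and the wt element), and pool 1 held its native and altered w forms. Members were taken by the site number in the element names, 567 of the 9694 named elements in these 3 pools. The site was selected on its pool 6 log2 ratios against wt, so the pool 6 and pool 5 values are given as descriptions and none was tested.

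The cells were 3T3-L1, a mouse pre-adipocyte line, and the adipogenic medium held IBMX (0.5 mM), insulin (1.7 µM) and dexamethasone (1 µM). Calf serum (10%), FBS (10%) and a medium change at 48 h are also listed, alike for all RNA, ChIP and input libraries used. RNA and ChIP DNA were taken 16 h after transfection; the day of transfection relative to induction is not given in the sources used here. Each element drove a barcoded transcript, and its activity is the log2 ratio of RNA counts to plasmid counts. Pools 6, 5 and 1 had 1 RNA and 1 plasmid library each, with no control or treated cultures to compare, and pool 1 also had 1 PPARγ ChIP and 1 input library. With no replicate library, intervals below cover counting error only. Reads of a barcode are not independent molecules, so the true error is larger.

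Adipocyte differentiation depends on PPARγ, a nuclear receptor. It binds DNA as a dimer with RXR at DR1 motifs, which are direct repeats of AGGTCA set apart by 1 base. AP-1 factors are dimers of FOS, JUN and related bZIP proteins, and they act at many enhancers that also bind nuclear receptors.

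The motif in the element's name is shown because the pool 1 comparisons turn on it. It lies at chr11:100720706-100720721 in mm9 on the + strand, and capitals mark the bases that match the DR1 repeats in the best alignment. No mm9 annotation was used, so the site was not assigned to a gene.
Site 240 motif: agctGGgCAaAGGggA
This alignment had 4 mismatches in 12 compared positions, with 4 of 6 bases matching in each repeat. Of the 750 w sites of pool 1, 28.4% had 4 mismatches.

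In pool 6, most elements with an inserted motif stayed within 2-fold of the native element, and those outside were nearly all higher. The wt element had 9954 RNA and 20936 plasmid counts over 492 barcodes, or 0.475 RNA counts per plasmid count, which ranked it 7 among the 15 wt elements of the pool. Inserted elements had 13 to 212 barcodes (median 157.5) and 483 to 10304 plasmid counts, so all 546 passed the minimum of 50. They averaged 0.31 ± 0.75 against wt on the log2 scale (SD over 546 elements, median 0.17), and 448 stayed within 2-fold. At least 2-fold higher were 97 elements, or 17.8%, where 9.75% of the inserts of all 15 sites were. At least 2-fold lower was 1 element, where 20.3% of all inserts were. All these values share 1 wt element; with the mean of the 14 inserts that carry their slot's own name as the baseline instead, every value is lower by 0.30. The mean is then 0.01, with 61 elements at least 2-fold higher and 15 lower. The line at 2-fold falls in a dense range of values: couptf in the err1 slot was at 1.004, just inside it, and jun in the rar slot at 0.999, just outside.

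Against the other 14 sites, site 240 had a mean that ranked 4 of 15 from the top. Means of the other sites lay between -1.58 (site 138) and 0.36 (site 699), with a median of -0.0023. The order of the motifs was much like that elsewhere: the 39 insert means at site 240 and their averages over the other 14 sites had r = 0.935, over points that share the pool's libraries. Of the 20 inserts of the pool that were highest against their own site's wt, 10 were at site 240, which held 14.7% of all inserts.

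Spans that carry 2 slot names show how far like-named elements differed. The 14 slot names cover 10 spans of bases: pparg and rxr share 51 to 65, ctf1 and nf1 share 80 to 94, lxr and rar share 97 to 113, and ppar and rxr share 112 to 130. Elements with the same span and the same insert were separate entries with separate counts, and whether their sequences are the same is not given. Over these 156 pairs the median absolute difference was 0.21 and the 95th percentile 0.66, where the median half-width of an element's counting interval was 0.07. Within a span, the SD of the difference was 0.27 at 51 to 65, 0.29 at 80 to 94, 0.30 at 97 to 113 and 0.38 at 112 to 130. The greatest disagreement was zfp410 at 80 to 94, with -1.25 under ctf1 (92 barcodes) and -0.05 under nf1 (58 barcodes). That first value is the 1 element counted as 2-fold lower, and its name twin was near wt. A difference between single elements under 0.66 is no larger than this spread.

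Inserted motif names accounted for more of the variance than slots did. The insert took 49.8%, the slot 20.3%, and 29.8% remained. With 1 slot name per span these shares were 52.8%, 18.5% and 28.8%. Likeness between slots in the profile of the 39 inserts varied, with r between 0.35 (err1 at 94 to 104 with rxr at 51 to 65) and 0.87 (couptf at 97 to 121 with rar at 97 to 113) over 87 pairs of slots with different spans. Among the 62 pairs that share no base the median r was 0.58, and the highest was 0.81, for cebp at 100 to 111 with ap2 at 48 to 59. All slots share the pool's libraries, and these r are descriptions.

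Slots differed in how far their inserts lay from wt. The myb slot at 26 to 35 had the highest mean, 1.01 ± 0.87 (SD over 39 inserts, range -0.61 to 2.89), with 35 inserts above wt and 18 at least 2-fold higher. MYB proteins are helix-turn-helix transcription factors known from blood cell progenitors. The ap2 slot at 48 to 59 followed with 0.57 ± 0.86 and 11 at least 2-fold higher, from sna (-0.63) and slug (-0.61) at the bottom to foxo4 (2.48) and bach1 (3.05) at the top. Of the 39 motifs, 18 had their highest value in the myb slot.

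Next to it, the span at 51 to 65 was near wt on average, at 0.10 ± 0.60 under pparg and 0.14 ± 0.65 under rxr, with 19 inserts above wt and 4 at least 2-fold higher under each name. It overlaps the ap2 slot at 48 to 59, yet its profile was among those least like that slot (r = 0.39 for pparg). The highest inserts at 51 to 65 were rxr and ppar under both names.

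Spans at the far end of the element lay between. The err1 slot at 94 to 104 averaged 0.18 ± 0.70. Means of the lxr and rar slots at 97 to 113 were 0.43 ± 0.69 and 0.44 ± 0.64, of couptf at 97 to 121 0.49 ± 0.78, and of cebp at 100 to 111 0.45 ± 0.72. The ap2 slot at 109 to 128 averaged 0.36 ± 0.70, and the ppar and rxr slots at 112 to 130 0.42 ± 0.64 each. All 8 means were above wt, from 0.18 to 0.49, and each was smaller than the SD over its inserts. With the own-name baseline, the err1 slot (-0.11) and both slots at 51 to 65 (-0.20 under pparg and -0.16 under rxr) turned below it, and 9 slot means in place of 12 were above. By median over inserts the same 3 slots were also below wt, at -0.04, -0.02 and -0.02.

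The span at 80 to 94, named for nuclear factor I, was the exception in direction. NF1 proteins bind a palindromic TTGGC motif, and CTF1 is another name within that family. Of its 78 elements 68 were below wt, against 159 of the 468 elsewhere. Its means were -0.36 ± 0.44 under ctf1 and -0.33 ± 0.41 under nf1, the only slot means below wt, and no element there was 2-fold higher. Of the 39 motifs, 23 had their lowest value in this span.

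The same span stood out when its native motif was altered in pool 5. The wt element there had 7873 RNA and 19640 plasmid counts, and ranked 210 of 245 wt elements by their ratio. The altered ctf1_80 element had 1271 RNA and 4633 plasmid counts, which is -0.55 against wt (interval -0.64 to -0.45). The altered nf1_80 element had 1951 and 7027 counts, which is -0.53 (-0.61 to -0.45), and tlx1_80 is listed with the same counts. Both differences are smaller than 0.66, the 95th percentile between name twins in pool 6, and larger than the median there, 0.21. Pool 6 elements with nf1 or ctf1 inserted at 80 to 94 were also below their wt. In the nf1 slot, nf1 gave 2274 RNA and 7307 plasmid counts (-0.61) and ctf1 gave 2548 and 7972 (-0.57). In the ctf1 slot, nf1 gave -0.76 and ctf1 also gave -0.76.

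Elsewhere, elements with an altered native motif were close to wt, from -0.19 to 0.21. Over the whole site, with the span at 80 to 94 included, the 15 named instances were 11 distinct elements. Their mean was -0.11 and their median -0.13, and 6 of the 11 were below wt. No instance was 2-fold lower or higher, where 36.6% and 0.997% of the 1605 distinct named alterations of all sites were. The median over those was -0.69. After the NF1 elements came ap2_48 (-0.19), cebp_100 (-0.16), the element listed for rar_97 and lxr_97 (-0.14) and couptf_97 (-0.13). C/EBP factors act early in adipocyte differentiation, and LXR, RAR and COUP-TF are nuclear receptors that bind relatives of the PPARγ motif.

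Named instances at or above wt were myb_26 (0.03), err1_94 (0.06), the element listed for ppar_112 and rxr_112 (0.06), ap2_109 (0.18) and the element listed for pparg_51 and rxr_51 (0.21). The 2 control alterations lay on both sides of wt, at 0.38 for ap2_ctrl and -0.29 for hnf4_ctrl. No named alteration of the site fell below wt by more than the spread between name twins. Altering pparg_51 had 1698 RNA and 3667 plasmid counts, so the element with that named PPARγ motif altered was not below wt (interval 0.12 to 0.30). Of 245 sites, 216 had a lower mean effect of named alterations.

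Side by side, the span with the lowest pool 5 values, 80 to 94, also had the lowest insert means in pool 6. In the myb slot, which had the highest insert mean in pool 6 (1.01), the altered motif was near wt in pool 5 (0.03). In the ap2 slot at 48 to 59 the values were -0.19 and 0.57. In the other slots the altered motif lay between -0.16 and 0.21 and the mean insert between 0.10 and 0.49. The span at 51 to 65 had the highest value of a named alteration, 0.21. Its insert means, 0.10 under pparg and 0.14 under rxr, were the lowest outside 80 to 94. The insert that carries a slot's own name averaged 0.30 over the 14 slots and was above wt in 8. It was highest of all 39 at rxr 51 to 65 (1.65) and ppar 112 to 130 (1.86), and ranked 36 at myb (-0.03), 35 at ctf1 (-0.76) and 34 at ap2 48 to 59 (-0.29) and err1 (-0.40). Elsewhere the own name was at 1.37 in the rxr slot at 112 to 130, 0.73 in rar, 0.32 in lxr, 0.29 in ap2 at 109 to 128, 0.19 in couptf and -0.18 in cebp.

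Across slots, 4 motifs led: bach1, ppar, ap1 and rxr. One of them was the highest insert in 13 of 14 slots, and they made up 39 of the 97 elements at least 2-fold higher. That is 39 of their own 56 elements against 58 of the other 490, where the share over all 546 was 17.8%. The 4 were picked by their means over these same elements, so the split is partly set by the choice. BACH1 is a bZIP factor that pairs with small MAF proteins at sites that contain an AP-1 core, mostly as a repressor. Its motif averaged 1.71 ± 0.72 (SD over 14 slots, range 0.66 to 3.05), above wt in all 14 slots and at least 2-fold higher in 10. The mean of bach1 was the highest of the 15 sites, whose other 14 averaged 0.74 ± 0.78 (SD over sites, range -1.29 to 1.65).

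The bach1 element in the ap2 slot at 48 to 59 ranked 1 in the whole pool by log2 ratio against its own site's wt. In the ap2 slot at 48 to 59, bach1 had 27259 RNA and 6901 plasmid counts over 161 barcodes, or 3.95 RNA counts per plasmid count against 0.475 for wt, a log2 difference of 3.05 (3.00 to 3.11). In the myb slot it had 25044 and 9578 counts (2.46), and in the err1 slot 18432 and 7536 (2.36). It was lowest in the ctf1 slot at 80 to 94, with 1542 and 2053 counts (0.66), and had 2707 and 2905 in the nf1 slot (0.97). At 51 to 65 it was at 0.82 under pparg and 0.80 under rxr, below ppar and rxr there.

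The ap1 motif, named for the FOS-JUN dimer, averaged 1.34 ± 0.98 over slots and was the least even of the 4. It was highest in the myb slot, with 13596 RNA and 4966 plasmid counts (2.53), and reached 2.41 at couptf, 2.34 at ap2 48 to 59 and 2.30 at ap2 109 to 128. In the err1 slot it had 2420 RNA and 6271 plasmid counts, which is -0.30, where bach1 reached 2.36 in the same slot. At 80 to 94 ap1 was at wt, with -0.05 under ctf1 and 0.0023 under nf1. The difference of bach1 minus ap1 was 0.37 ± 0.81 over slots, with bach1 higher in 7 of 14.

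Among the 4, ppar and rxr varied least along the element. They averaged 1.36 ± 0.44 and 1.33 ± 0.44 over slots and were above wt in all 14, with lowest values of 0.63 for ppar in the nf1 slot and 0.55 for rxr in the ctf1 slot. Both were highest in the myb slot, where ppar had 5280 RNA and 2249 plasmid counts (2.30) and rxr 4192 and 2107 (2.06). At 112 to 130, ppar gave 1.86 and rxr 1.84 in the ppar slot. The 2 motifs differed by 0.03 ± 0.22 over slots, and in 12 of 14 slots both had under 110 barcodes (medians 64 and 63). Whether their inserts share a sequence is not given.

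The name pparg gave lower values than ppar. It averaged 0.36 ± 0.39, with 1 slot at least 2-fold higher, and ppar exceeded it in all 14 slots, by 1.00 ± 0.37. In the pparg slot itself, pparg had 910 RNA and 1886 plasmid counts (0.02), where ppar had 1838 and 1344 (1.52) and rxr 1950 and 1304 (1.65).

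By list, the AP-1 group with its bZIP relatives (6 names) had the most elements at least 2-fold higher. Their 84 elements had a median of 0.97, 71 were above wt and 39 at least 2-fold higher, against a median of 0.17, 319 and 97 for all 546. After bach1 and ap1 came fos (0.73 ± 0.68), fra1 (0.70 ± 0.79), jun (0.66 ± 0.73) and jdp2 (0.59 ± 0.65), all subunits that can bind AP-1 sites. Their order changed when only elements with at least 110 barcodes were kept: jun then averaged 1.13, jdp2 0.97, fra1 0.70 and fos 0.66. Those averages cover different slots. For jun and jdp2 the limit left out both slots at 51 to 65 and both at 80 to 94, the spans with the lowest slot means. Barcode number and slot cannot be told apart here. Each of fos, fra1, jun and jdp2 was below wt in both slots at 80 to 94, from -0.69 to -0.15.

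The 2 ATF names, of stress-responsive bZIP factors, had a median of 0.43 over 28 elements, with 7 at least 2-fold higher. That is 25%, where 17.8% of all 546 elements were at least 2-fold higher. Most of the 7 fell to atf4, which averaged 0.71 ± 0.71. It reached 2.27 in the ap2 slot at 109 to 128 (15027 RNA and 6554 plasmid counts). C/EBP and PAR bZIP proteins share DNA sites and act in adipocytes and in the circadian clock. Of the elements named for them, 10 of 42 (23.8%) were at least 2-fold higher. Among them hlf averaged 0.79 ± 0.74 and e4bp4, a repressor, 0.61 ± 0.58, whereas cebp averaged -0.03 ± 0.38. The name vbp, a PAR bZIP factor outside that list, averaged 0.70 ± 0.66.

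Nuclear receptor names divided. Of 196 elements 30 were at least 2-fold higher, or 15.3%, where 17.8% of all 546 elements were. The median of the 196 was 0.20, against 0.17 for all, and 22 of the 30 fell to ppar, rxr or pparg. The estrogen-related receptor names were low on average, at 0.04 ± 0.89 for err1, -0.17 ± 0.29 for err2 and -0.23 ± 0.25 for err3. Forkhead names had a median of 0.40 over 42 elements and 3 at least 2-fold higher (7.14%). The NF1 list held nf1 alone, with -0.17 ± 0.44 and none of 14 elements at least 2-fold higher, and ctf1 averaged -0.10 ± 0.41.

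Snail names were at the bottom. Snail and Slug are zinc finger repressors that bind E-boxes. Of their 28 elements 1 was above wt, with a median of -0.55 and none at least 2-fold lower or higher. The lowest means of all 39 motifs were slug (-0.57 ± 0.22), sna (-0.43 ± 0.19), ap2 (-0.32 ± 0.33), zfp410 (-0.32 ± 0.37), sox13 (-0.29 ± 0.33) and myb (-0.28 ± 0.22). In the myb slot, where 35 of 39 inserts were above wt, slug gave -0.61 (2303 RNA and 7400 plasmid counts), ap2 -0.30 and sna -0.10.

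Some values were far from what the slot mean and the insert mean add up to. In the myb slot, dax1 had 36255 RNA and 10304 plasmid counts over 186 barcodes (2.89, interval 2.84 to 2.93) and err1 had 20896 and 6130 over 185 (2.84). Elsewhere at the site dax1 peaked at 1.06 and err1 at 0.65, and over the 81 slots of other sites their highest values were 2.01 and 2.25. DAX1 is an orphan nuclear receptor without the usual DNA-binding domain, and ERRα, the product of Esrra, binds extended single repeats. The related names err2 and err3 stayed near wt in the same slot, at 0.17 and 0.14.

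In the ap2 slot at 48 to 59, foxo4 had 9988 RNA and 3752 plasmid counts over 122 barcodes, which is 2.48 (2.42 to 2.55). FOXO4 is a forkhead factor of the insulin pathway. Its next value at the site was 1.30, in the cebp slot, and its highest in 81 slots of other sites was 0.77. Another forkhead name, foxp3, was highest in the cebp slot (1.86, from 12020 RNA and 6965 plasmid counts). In the overlapping pparg slot at 51 to 65, foxo4 was at -0.67.

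The extremes of each remaining slot were as follows. In the lxr and rar slots ap1 (2.06 and 1.81) and bach1 (1.77 and 1.45) were highest. The lowest inserts were sna (-0.58) and slug (-0.54) in the lxr slot, and areb6 (-0.63) and slug (-0.58) in the rar slot. The couptf slot had ap1 and bach1 (2.22) at the top and slug (-0.75) and zfp410 (-0.55) at the bottom. The cebp slot had bach1 and foxp3 at the top and nf1 (-0.47) and zfp410 (-0.42) at the bottom.

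The spans nearest the end of the element differed in their lowest inserts. At ap2 109 to 128, myb (-0.57) and sna (-0.47) were lowest, and ap1 and atf4 highest. At 112 to 130, sox13 (-0.74) and slug (-0.56) were lowest in the ppar slot, and err3 (-0.50) and sox13 (-0.50) in the rxr slot, where bach1 (1.76) and fos (1.74) were highest. In the err1 slot bach1 and ppar (1.53) were highest, with nf1 (-0.78) and slug (-0.68) lowest. At 51 to 65, err1 (-0.68) and foxo4 were lowest under pparg, and ap2 (-0.81) and slug (-0.78) under rxr. At 80 to 94, ppar (0.95) and bach1 led in the ctf1 slot and bach1 and rxr (0.64) in the nf1 slot, and the lowest besides zfp410 were err2 (-0.82) under ctf1 and slug and sox13 (-0.89 each) under nf1.

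A few values rest on few barcodes. Under 30 barcodes stood behind atf3 in the lxr slot (13 barcodes, 0.54), couptf in the ap2 slot at 109 to 128 (13 barcodes, 0.57) and fos in the rar slot (21 barcodes, 1.27). The fos value in the lxr slot of the same span was 0.59. Of the 546 elements, 118 had under 110 barcodes.

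Pool 1 compared the native motif with an altered one, read from the d in the names, over single barcodes. Whether pool 1 values had any part in the choice of the site is not given. Altering the motif did not change activity of the w element beyond the spread between barcodes. Altered activity had a median of 0.46 over 6 barcodes (range -0.28 to 1.80, 2024 RNA and 2456 plasmid counts), and native activity a median of 0.96 over 8 barcodes (range -0.52 to 1.23, 6219 RNA and 4880 plasmid counts). The ranges overlapped. The difference of medians, native minus altered, was 0.51. The difference of barcode means, which the test uses, was 0.25, with a 2-sided exact permutation p = 0.497 and adjusted p = 0.652 over 745 w sites. The size was unsettled, with 0.78 at a minimum of 100 plasmid counts per barcode and 0.63 on summed counts, neither past the threshold. The difference of medians ranked 379 of 745, beside a median of 0.51 over those sites, of which 31.8% were called higher in the native form and 0.537% lower.

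The c element of the same number carries the same motif sequence at another locus, chr16:20702453-20702468 in mm9 on the - strand. Altered c activity had a median of -0.47 over 8 barcodes (range -1.01 to 0.20) and native c activity -0.74 over 9 (range -1.30 to 0.32). Native minus altered was -0.26 in medians and -0.11 in the barcode means that were tested (exact permutation p = 0.639, adjusted p = 0.954 over 750 numbers). Of those numbers 1.33% were called higher and 0.267% lower. Neither the w nor the c comparison shows that the motif has no effect at these barcode numbers.

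Between the 2 loci, where the named motif sequence is the same, activity differed. Native w activity exceeded native c activity by 1.70 in medians (0.96 against -0.74). In the barcode means that were tested it was higher by 1.38, with exact permutation p = 0.000617 and adjusted p = 0.00311 over 746 numbers. Of those numbers 40.5% were called higher and 1.47% lower. Of the 8 native w barcodes 7 lay above the highest of the 9 native c barcodes (0.32). With the motif altered, w exceeded c by 0.93 in medians (0.46 against -0.47) and by 1.02 in barcode means. The test on means gave exact permutation p = 0.004 and adjusted p = 0.0374 over 749 numbers, with 10.4% called higher and 1.34% lower. This call was lost in the exact permutation test with no barcode minimum (adjusted p = 0.584) and with a minimum of 100 plasmid counts (adjusted p = 0.169). Barcodes of an element share 1 transfection, so these p-values measure spread between barcodes and not between cultures.

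In PPARγ ChIP of pool 1, altered and native w elements did not differ beyond counting error. The altered w element had 235 ChIP and 174 input counts (log2 ratio scaled to library totals -0.09, interval -0.38 to 0.19), and the native w element 382 and 293 (-0.14, -0.36 to 0.08), which ranked 409 of 567 native w elements, whose median was 0.30. Native minus altered was -0.05 (-0.41 to 0.31). The altered c element had 199 and 179 counts (-0.37) and the native c element 125 and 188 (-1.11), a difference (native minus altered) of -0.74 (-1.17 to -0.30). Among 439 native c elements, whose median was 0.0099, this native c element ranked 415. Native w exceeded native c by 0.97 (0.57 to 1.36). Altered w minus altered c was 0.28 (-0.13 to 0.68), an interval that includes 0. These are single libraries, and no test was made.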

How the data were processed

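The deposited tables hold raw read counts, as read from the file headers. Pool 1 gives counts for 9 barcodes per element, and pools 5 and 6 give counts the authors summed over all barcodes, with the number of barcodes. The submitters' processing notes list build mm9, Bowtie2 2.1.0 for the libraries that link barcodes to elements and BWA 0.7.12 for ChIP and input; other steps are not given in the sources used here. The RNA and plasmid libraries held 14198899 and 19193436 counts in pool 6, 15258069 and 16952662 in pool 5, and 34801803 and 48330091 in pool 1, and the ChIP and input libraries held 1987761 and 1381624. In pool 5, 101 entries that name no element, with 3.00% of RNA and 4.90% of plasmid counts, were left out.

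The members and lists were chosen with earlier results of these data known. A pseudocount of 1 was added to each count. In pools 5 and 6 the log2 of RNA over plasmid counts was taken for elements with at least 50 plasmid counts, minus that of the site's wt element, so library totals cancel. Intervals are 95% and come from the 4 counts. Pool 1 used barcodes with at least 20 plasmid counts, ratios scaled to library totals, medians over barcodes, and a 2-sided exact permutation test on barcode means with Benjamini-Hochberg adjustment over all numbers, threshold 0.05. That test was tested on simulated data. Values with no test are called past 2-fold. Named items are all slots with their 2 highest and 2 lowest inserts and own-name insert, the 6 highest and 6 lowest insert means, and all elements of pools 5 and 1; same-span pairs, the elements far from slot plus insert, vbp and other members named by list were chosen after their values were seen. Python 3.11.15, numpy 2.4.6, pandas 2.3.3 and scipy 1.17.1 were used. Alternatives were other pseudocounts, count minimums, baselines and summaries; the remaining pools were not used here.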

Additional observations from a re-analysis of the deposited data

How the results depend on the processing

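Pseudocounts of 0.5 and 5, no plasmid minimum and a higher one left the pool 5 and pool 6 results on the same side with little movement. The wt element is a single baseline, and it set the counts. With the mean of the 14 own-name inserts as the baseline, 61 elements were at least 2-fold higher and 15 lower, against 97 and 1. The overall mean was then 0.01 in place of 0.31, with 9 of 14 slot means (12 against wt) and 20 of 39 insert means (26 against wt) above the baseline, so directions near wt rest on that element. By median the overall value was 0.17, with 9 slots and 24 inserts above wt. Keeping only elements of at least 110 barcodes was an alternative chosen after seeing the data, as was 1 slot name per span. Of the 428 elements with at least 110 barcodes, 0 were 2-fold lower and 76 higher, against 1 and 97 of all 546. The 0 arose because zfp410 in the ctf1 slot had 92 barcodes. For w altered against c altered in pool 1, the difference was 0.62 with no barcode minimum and 0.53 with a minimum of 100, and it no longer passed. For c native minus c altered the difference was -0.46 on summed counts and -0.11 by barcode means, against -0.26, never past the threshold. In the other 67 of 72 settings of these results, no test changed its call and no count moved by over 1.5 times. Of 420 settings of single slot and insert means, 414 moved by less than 1 SD over slots or inserts, a wide margin within which some changed sign, and the other 6 moved by more with the own-name baseline. No paired analysis was possible because each library was made once. Few barcodes (6 to 9 kept per element) limit pool 1.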
